A study of Mus musculus with 6 samples.

Results

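Astrocytes are the glial cells that clear glutamate and potassium from around synapses, supply neurons with metabolites, wrap blood vessels with their endfeet and are coupled to each other by gap junctions. In the hippocampus their fine processes surround excitatory synapses, and after injury they raise intermediate filament genes such as Gfap, a state called reactive. The genes described here are 34 markers of this cell type, listed by name, although earlier results of these data were known when the list was drawn up. All 34 were measured, of 22180 genes in all that had a probe set naming a single gene. Where a gene had several such probe sets, the one with the highest mean over all arrays was used.

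RNA came from whole hippocampus of male mice at postnatal day 56, on a C57BL/6J background. There were 3 samples labelled Trpc4 wild type and 3 labelled Trpc4 knock out, each on its own Affymetrix array. The labels give replicate numbers without saying that each is another animal, so the p-values cover the spread from sample to sample, and part of it may be technical. They do not state which part of Trpc4 was deleted. Values are log2 signals made with RMA, and every difference below is knockout minus wild type on the log2 scale, where 1 is a doubling of signal. Array medians lay between 4.73 and 4.75. The Trpc4 signal, which encodes a receptor-operated cation channel, was 8.06, 8.23 and 8.06 in wild type and 7.39, 7.55 and 7.31 in knockout, a difference of -0.70 with groups that did not overlap (limma adjusted p = 0.738 over all genes).

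On the probe set of highest mean for each gene, the largest difference of an astrocyte gene between the genotypes was 0.17 in size. A dimmer Glul probe set, which lies outside the counts and intervals of this paragraph, differed by -0.42 and is described below. By limma 0 of the 34 passed an adjusted p of 0.05 over all genes, as did 0% of all genes tested, and 0 of the 34 had an unadjusted p under 0.05, against 5.75% of all genes. The differences ran from -0.16 for the water channel gene Aqp4 to 0.17 for the gap junction gene Gjb6, that is from 89.3% to 113% of the wild-type signal. The smallest unadjusted limma p was 0.109 and the lowest adjusted p was 0.877. Every one of the 34 intervals (95%, from the limma fit) lay inside a 1.5-fold change in either direction, and 20 lay inside a 1.2-fold change. The lowest bound was -0.42 (Aqp4) and the highest 0.43 (Gjb6). Smaller changes could not be resolved with 3 arrays per group.

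**Figure D1:**
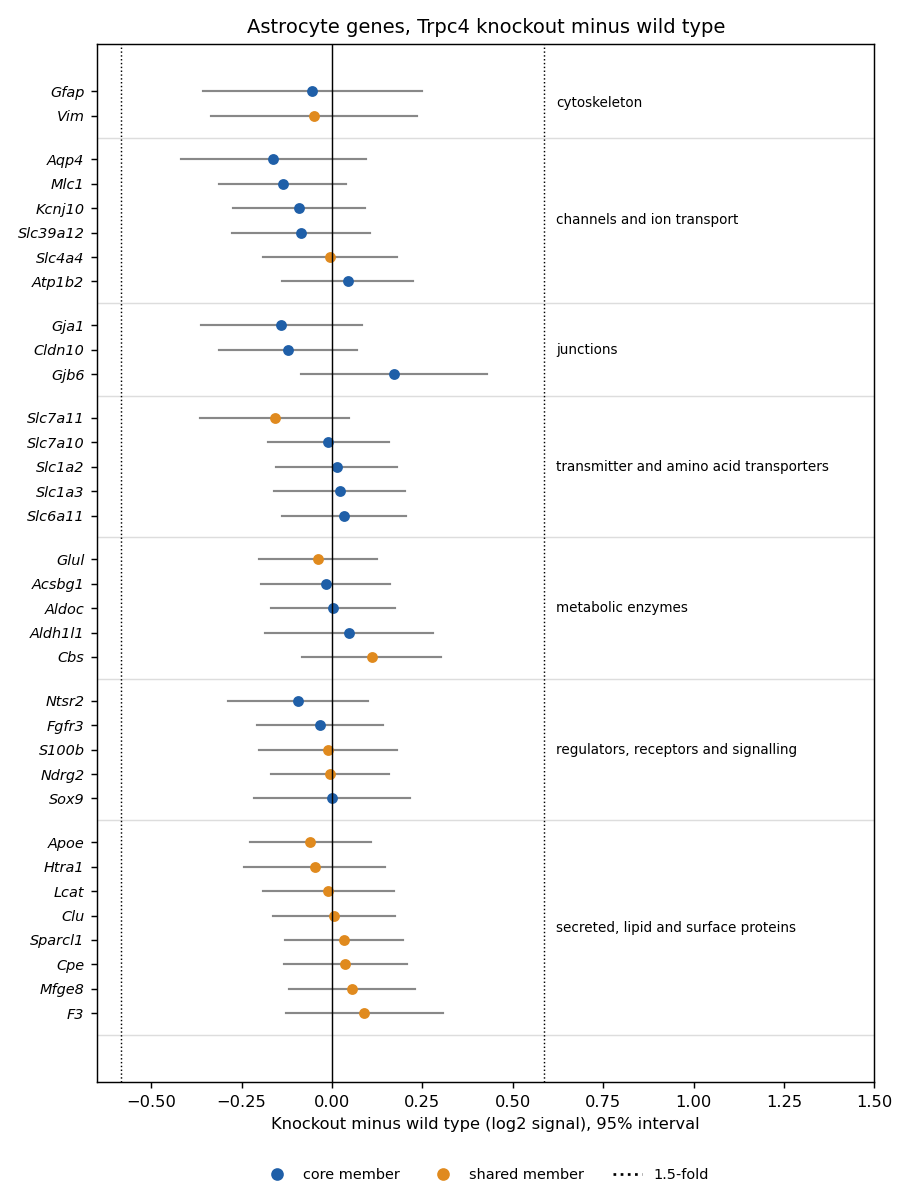
Knockout minus wild type on the log2 scale (x axis) for the 34 astrocyte genes, grouped by role, with points for the fitted difference and bars for the 95% interval from limma. Blue marks the 19 core members, orange the 15 members also known from other brain cells, and dotted lines mark 1.5-fold. Every bar crosses 0, and the outermost bounds are -0.42 and 0.43.

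In knockout 21 of the 34 signals were below wild type and 13 above it, where 45.1% of all genes tested were lower. The median difference was -0.010, beside 0.013 over all genes. With quantile normalization or with median centring 22 were lower, and without knockout replicate 2 only 15 were, with a median of 0.010, so that the balance of signs hung on that sample. The median absolute difference of the 34 was 0.045, against 0.067 for the 12978 genes with a mean above the median of all probe sets (4.72). All 34 lay above that median, as did 58.5% of all genes. Their wild-type means ran from 5.11 for Gjb6 to 11.72 for Cpe, which reflects probe sets as well as transcripts and gives no order of abundance. Because tissue was measured in bulk, the number of astrocytes and the RNA per astrocyte cannot be told apart in these signals.

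Several of these genes are not private to astrocytes, and the list was therefore also read in 2 classes. The 19 core members, which textbook knowledge places mainly in astrocytes of the adult hippocampus, had a median difference of -0.018 (12 lower, 7 higher). The 15 others, such as Apoe (also made by microglia) or Cpe (also made by neurons), had one of -0.0055 (9 lower, 6 higher). Single samples moved both medians. Leaving out knockout replicate 3 took the core median to -0.065, its lowest value, and leaving out replicate 2 of that genotype took it to -0.0024, its highest. The median of the others was above 0 in 4 of the 6 runs that left out 1 sample, at 0.0093 and 0.012 when wild-type replicate 2 or 3 was dropped, and at 0.017 and 0.014 when the dropped sample was knockout replicate 2 or 3.

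Within the genotype groups, the filament genes had the widest spread of the 34, with residual SDs of 0.19 for Gfap and 0.17 for Vim. Gfap, the intermediate filament protein that defines astrocytes in stained tissue, had signals of 8.72, 8.50 and 8.70 in wild type and 8.41, 8.50 and 8.85 in knockout. The knockout samples held both the lowest and the highest value, and they spanned the whole wild-type range. The difference was -0.054, with an interval of -0.36 to 0.25. It was -0.19 without knockout replicate 3 and 0.035 without knockout replicate 1. Vim encodes vimentin, the filament partner of GFAP that endothelial cells and immature glia also make, and its sample values are given because they were seen to resemble those of Gfap. They were 7.63, 7.82 and 7.60 in wild type and 7.55, 7.47 and 7.88 in knockout. For both genes knockout replicate 3 was the highest of the 6 samples, and knockout replicates 1 and 2 lay below every wild-type sample, although Gfap in replicate 2 matched the lowest of them to 2 decimals. The Vim difference was -0.050 (interval -0.34 to 0.24), and it was -0.17 without knockout replicate 3 and 0.030 without knockout replicate 2.

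**Figure D2:**
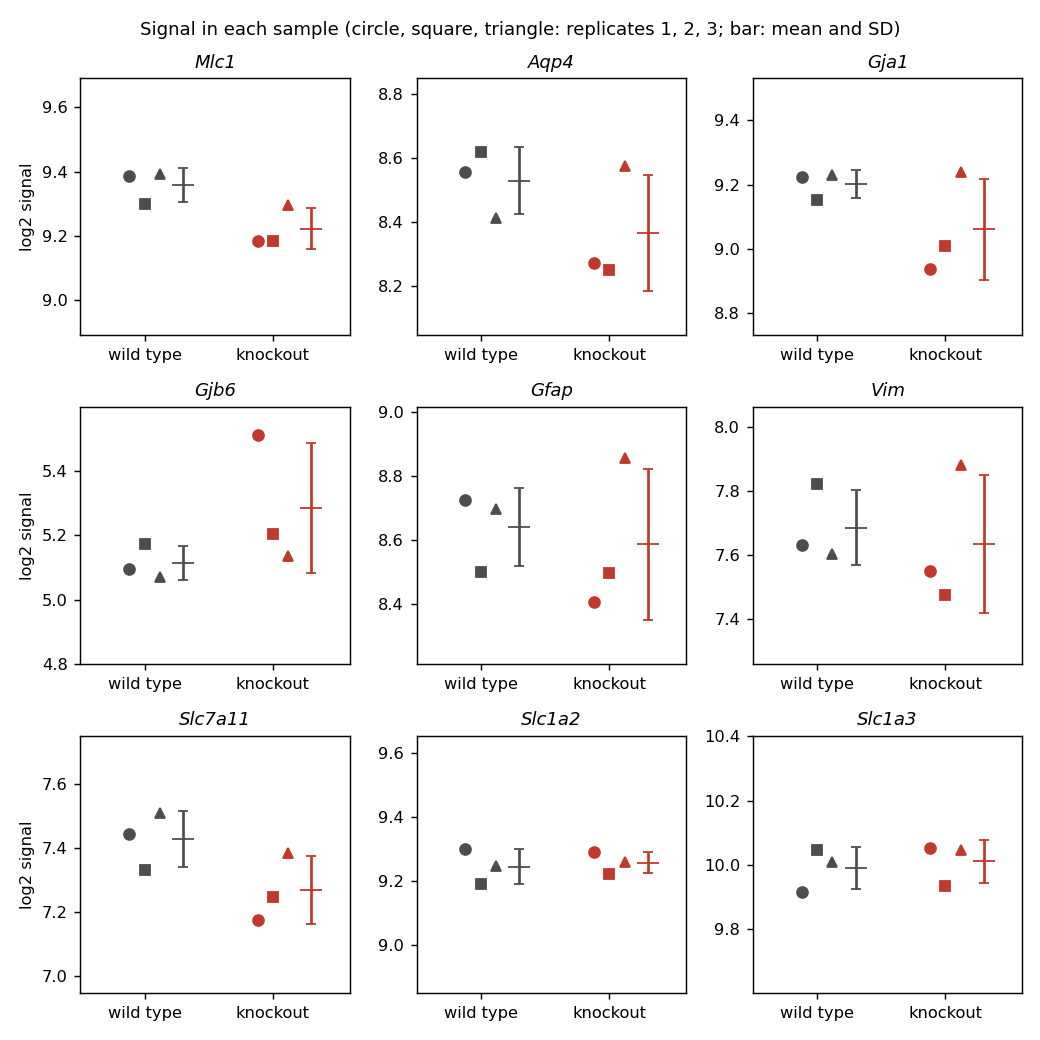
Log2 signal (y axis, a span of 0.8 in every panel) of 9 astrocyte genes in the 3 wild-type (grey) and 3 knockout (red) samples, with the mean and SD beside the points. Circles, squares and triangles mark replicates 1, 2 and 3. Knockout replicate 3 lies apart from knockout replicates 1 and 2 for Gfap, Vim, Aqp4 and Gja1, while Slc1a2 and Slc1a3 overlap closely.

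Gfap is a textbook target of STAT3, which acts downstream of cytokine receptors, and nuclear factor I (NFI) and SOX9 are factors of astrocyte development. The promoter windows of the members, from 250 bases before to 50 after each annotated start, were therefore searched on both strands for their motifs (RefSeq sequences, GRCm38.p6). Windows were found for 28 of the 34 members. The STAT-type motif TTCNNNGAA was present for 6 of these 28 genes, against 9.55% of all 27025 genes with a window. The matches are shown with their neighbouring bases, 5′ to 3′ on the gene's strand, with the motif in capitals, because they include Gfap and the glutamate transporter gene Slc1a3.
Acsbg1: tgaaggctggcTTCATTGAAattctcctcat
Aldoc: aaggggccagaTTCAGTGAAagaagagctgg
Aldoc: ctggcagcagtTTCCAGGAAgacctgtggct
Gfap: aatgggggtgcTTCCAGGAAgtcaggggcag
Ntsr2: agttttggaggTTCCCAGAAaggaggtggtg
Slc1a3: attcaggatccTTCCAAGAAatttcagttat
Slc7a11: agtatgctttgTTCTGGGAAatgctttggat
The second Aldoc match and the Gfap match hold the same letters in the motif. The NFI motif TTGGC was present for 16 of 28 genes, against 50.4% of all genes. Its paired form, TTGGC and GCCAA with 5 bases between them, which contains the single motif, was present for 0 of 28, against 0.0444%. The SOX motif AACAAT was present for 0 of 28, against 12.2%, and its shorter form ACAAT, which it contains, for 4 of 28, against 34.4%.

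The windows of Gfap and of Mlc1, the member whose groups did not overlap, are given whole. The Gfap window lies at chr11:102897151-102897450 on the minus strand, with the STAT-type match in capitals. It starts 2 bases before the annotated start of the gene.
Gfap: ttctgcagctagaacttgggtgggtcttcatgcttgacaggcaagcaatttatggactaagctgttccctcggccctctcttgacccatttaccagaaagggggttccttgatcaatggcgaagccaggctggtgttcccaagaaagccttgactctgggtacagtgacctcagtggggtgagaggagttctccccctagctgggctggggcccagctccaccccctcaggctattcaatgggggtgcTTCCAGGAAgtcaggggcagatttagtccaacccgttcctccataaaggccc
The Mlc1 window lies at chr15:88978504-88978803 on the minus strand, with its NFI motif TTGGC in capitals.
Mlc1: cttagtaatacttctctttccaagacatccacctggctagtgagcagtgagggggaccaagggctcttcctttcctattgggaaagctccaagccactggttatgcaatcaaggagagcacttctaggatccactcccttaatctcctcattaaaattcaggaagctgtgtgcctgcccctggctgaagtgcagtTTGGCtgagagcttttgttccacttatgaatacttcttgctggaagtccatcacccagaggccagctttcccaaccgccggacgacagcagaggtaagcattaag
Such matches describe the letters of these windows and do not show binding. Sites outside the windows were not searched, and whether the Gfap match is a site known for STAT3 was not tested.

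Genes for channels and ion transport had a median difference of -0.088, with 5 of 6 lower, where 45.1% of all genes were. Of these 6, 0 passed an unadjusted limma p of 0.05. Mlc1, a membrane protein of endfeet whose human gene is mutated in a leukodystrophy, was the sole member whose groups did not overlap, where 10.9% of all genes had such groups. So 1 of 34 lay wholly lower in knockout, against 4.45% of all genes, and 0 wholly higher, against 6.41%. Its signals were 9.387, 9.297 and 9.391 in wild type and 9.184, 9.185 and 9.296 in knockout, so that the closest samples were 0.0015 apart. It differed by -0.14 (standard error 0.075), with an interval of -0.31 to 0.039 (limma adjusted p = 0.877). With any 1 sample left out it stayed between -0.17 and -0.12. Aqp4, the water channel of endfeet, had signals of 8.56, 8.62 and 8.41 in wild type and 8.27, 8.25 and 8.57 in knockout. Knockout replicates 1 and 2 were below all wild-type samples, and knockout replicate 3 was above 2 of them. Its difference was -0.16 with a standard error of 0.11 (limma adjusted p = 0.897), and -0.27 without knockout replicate 3, where the unadjusted limma p was 0.0297 and the adjusted p 0.816. Without knockout replicate 2 it was -0.11. Kcnj10, the inwardly rectifying potassium channel gene of astrocytes, differed by -0.091 (interval -0.27 to 0.092), and it was -0.053 without wild-type replicate 3. The zinc transporter gene Slc39a12 differed by -0.085 (interval -0.28 to 0.11), with a wild-type range of 0.040 and a knockout range of 0.22, and by -0.031 without knockout replicate 2. The bicarbonate cotransporter gene Slc4a4 differed by -0.0053 and Atp1b2, a sodium pump beta subunit, by 0.043, both with bounds of at most 0.22 in size.

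The junction genes went apart. Gja1 and Gjb6 encode the main connexins that couple astrocytes. Gja1 had signals of 9.22, 9.15 and 9.23 in wild type and 8.94, 9.01 and 9.24 in knockout, a difference of -0.14 with a standard error of 0.096 (limma adjusted p = 0.897). Knockout replicate 3 was the highest of all 6 and the other knockout samples were the lowest. Without knockout replicate 3 the difference was -0.23 (limma, adjusted p of 0.816, and 0.0337 before adjustment), and without knockout replicate 1 it was -0.079. Gjb6 had signals of 5.10, 5.17 and 5.07 in wild type and 5.51, 5.20 and 5.13 in knockout, a difference of 0.17 with a standard error of 0.11 (limma adjusted p = 0.897). Most of it came from knockout replicate 1, since without that sample the difference was 0.056. Cldn10, a claudin gene, differed by -0.12 (interval -0.31 to 0.069), and by -0.071 without knockout replicate 3.

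The glutamate transporter genes had overlapping groups and small differences. Slc1a2 encodes GLT-1, which takes up most synaptic glutamate in the forebrain. Its signals were 9.30, 9.19 and 9.25 in wild type and 9.29, 9.22 and 9.26 in knockout. The knockout values lay within the wild-type range, and the difference was 0.013 with an interval of -0.16 to 0.18. Slc1a3 encodes GLAST, the other glial glutamate transporter, and had signals of 9.92, 10.05 and 10.01 in wild type and 10.05, 9.93 and 10.05 in knockout. Its difference was 0.021 (interval -0.16 to 0.20), again with overlapping groups. The GABA transporter gene Slc6a11 (GAT-3) differed by 0.033 and Slc7a10, a transporter of small neutral amino acids such as serine and glycine, by -0.010. Slc7a11, the cystine and glutamate exchanger xCT, stood apart from these in size, with signals of 7.44, 7.33 and 7.51 in wild type and 7.18, 7.25 and 7.38 in knockout. Knockout replicate 3 alone reached into the wild-type range, above wild-type replicate 2. It differed by -0.16, with 0.088 as its standard error (limma adjusted p = 0.877), and with any 1 sample left out it lay between -0.22 and -0.11. A second, dimmer Slc7a11 probe set, with a wild-type mean of 2.98, differed by -0.071.

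Of the metabolic enzymes 3 were higher and 2 lower, with 0 past an unadjusted limma p of 0.05. Aldh1l1, a folate enzyme used as a general astrocyte marker, had signals of 6.78, 6.46 and 6.64 in wild type and 6.59, 6.71 and 6.73 in knockout. Its wild-type range of 0.32 was the widest of the 34 and enclosed all knockout values. The difference was 0.047 (interval -0.19 to 0.28), and its sign turned without wild-type replicate 2 (-0.036). Cbs, the transsulfuration enzyme that makes cystathionine, had signals of 6.05, 6.18 and 6.12 in wild type and 6.26, 6.12 and 6.30 in knockout. Knockout replicate 2 lay within the wild-type range and the other knockout samples above it, and the difference was 0.11 (interval -0.083 to 0.30), or 0.16 without knockout replicate 2. The glycolytic gene Aldoc differed by 0.0035 and Acsbg1, an acyl-CoA synthetase, by -0.018.

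The glutamine synthetase gene Glul was measured by probe sets that disagreed. The brighter one had a mean of 10.98 in wild type and 10.94 in knockout, a difference of -0.038 (limma unadjusted p = 0.600). The dimmer one had signals of 6.05, 6.28 and 6.67 in wild type and 6.09, 5.82 and 5.82 in knockout, a difference of -0.42 with a standard error of 0.16. Knockout replicate 1 lay just above wild-type replicate 1, so the groups overlapped. Its limma p was 0.0322 before adjustment and 0.852 after it, in a fit over all probe sets naming 1 gene. The Vim probe sets were close to each other, at -0.050 and -0.058.

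Regulators and signalling genes had differences of at most 0.095 in size, and 0 of 5 passed an unadjusted limma p of 0.05. All 5 were lower in knockout, where 45.1% of all genes were, but the signs of Sox9, S100b and Ndrg2 turned in some alternatives. Sox9, a transcription factor that starts and maintains the astrocyte fate, differed by -0.0010 (interval -0.22 to 0.21). The neurotensin receptor gene Ntsr2 differed by -0.095 and the growth factor receptor gene Fgfr3 by -0.033. The calcium-binding protein gene S100b, which some oligodendrocytes also express, differed by -0.011. Ndrg2 differed by -0.0055, with a wild-type SD of 0.0038 and a knockout SD of 0.051 (n = 3 each).

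Secreted, lipid and surface protein genes had a median difference of 0.019, with 5 of 8 higher and 0 past an unadjusted limma p of 0.05. F3, the tissue factor that starts coagulation, had signals of 7.56, 7.57 and 7.61 in wild type and 7.84, 7.58 and 7.58 in knockout. Knockout replicate 1 stood above the rest, and the difference of 0.089 became 0.0011 without that sample. The lipoprotein gene Apoe differed by -0.060 and Lcat, which esterifies cholesterol on lipoproteins, by -0.010. The chaperone gene Clu, which encodes clusterin, differed by 0.0048, and the synaptogenic matrix protein gene Sparcl1 (hevin) by 0.034. Mfge8, a bridging protein for phagocytosis, differed by 0.055, the serine protease gene Htra1 by -0.049, and the peptide-processing carboxypeptidase gene Cpe by 0.036. All 8 intervals lay between -0.24 and 0.31.

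**Figure D3:**
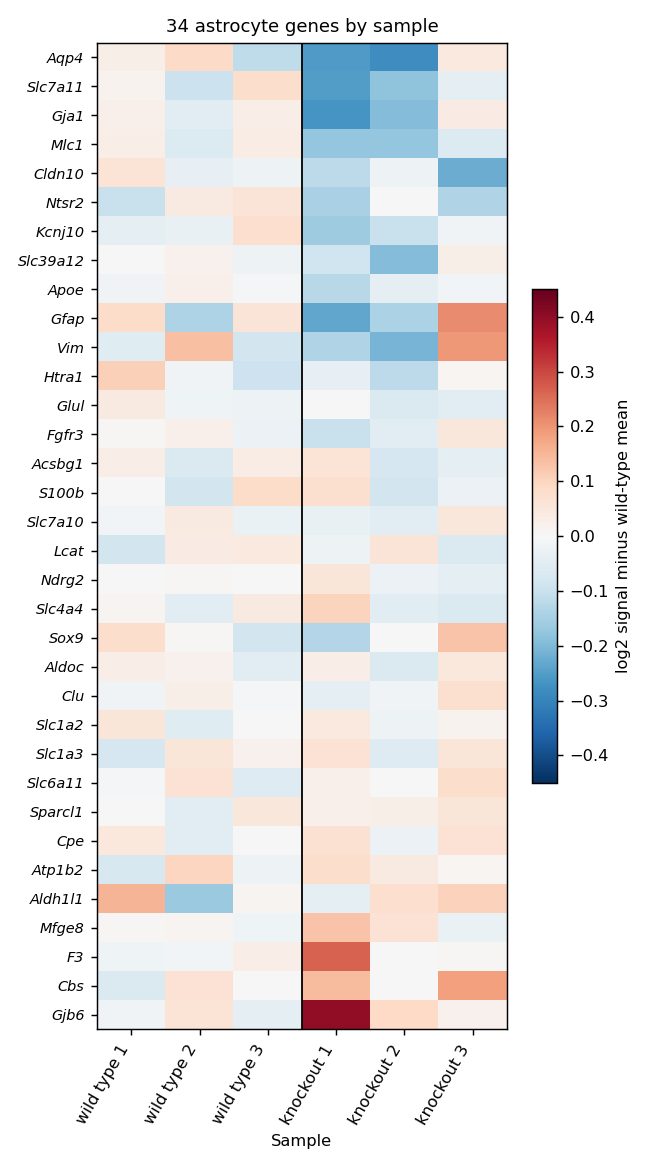
Log2 signal minus the wild-type mean of the same gene (colour scale) for the 34 astrocyte genes (rows, ordered by knockout minus wild type) in each of the 6 samples (columns). Knockout replicates 1 and 2 are blue in the top rows (Aqp4, Slc7a11, Gja1 and Mlc1), which the ordering favours. In the next rows, Cldn10 and Ntsr2, knockout replicate 2 is close to the wild-type mean and knockout replicate 3 is blue. Knockout replicate 3 is red for Gfap and Vim.

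The knockout samples were more uneven than the wild-type samples across these genes. Knockout signals spanned a wider range than wild-type signals for 24 of the 34 genes, where 49.4% of all genes and 49.0% of the brighter genes did. Genes measured in the same 6 samples share their RNA, so the 24 are not separate observations. The astrocyte score, which averages over the 34 genes how far a sample lies from the mean of all samples, was 0.017, 0.0053 and 0.0082 in wild-type replicates 1 to 3 and -0.014, -0.046 and 0.029 in knockout replicates 1 to 3. The knockout samples thus lay on both sides of all wild-type samples. Its mean was 0.010 ± 0.0058 over the wild-type samples and -0.010 ± 0.038 over the knockout samples (SD, n = 3 each). Over the 19 core members alone it was 0.029, 0.011 and 0.0083 in wild type and -0.039, -0.048 and 0.038 in knockout. Knockout replicate 2 was above the gene mean for 9 of the 34 members, against 54.1% of all genes in that sample, and knockout replicate 3 for 22, against 51.0%. Wild-type replicates 1 and 2 were also above it for 21 and 22 members, against 47.9% and 48.6% of all genes, and the remaining 2 samples were for 16 each, against 47.2% (wild-type replicate 3) and 51.7% (knockout replicate 1). Knockout replicate 3 held the highest value of the 6 samples for 12 members, where it did for 15.3% of all genes. Knockout replicates 1 and 2 held the lowest for 10 and 9, against 16.1% and 15.1% of all genes, and knockout replicate 1 held the highest for another 8, against 18.9%. Knockout replicate 2 also had the lowest score of the 6 after median centring (-0.066) and after quantile normalization (-0.046).

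Oligodendrocyte and myelin markers ordered the knockout samples in the same way. All 18 measured of 22 listed were lower in knockout, with a median of -0.40 and 0 past the adjusted threshold (limma, lowest adjusted p = 0.849), and 14 had an unadjusted p under 0.05 and were lower, where 2.59% of all genes were. Their score was 0.21, 0.16 and 0.23 in wild type and -0.19, -0.49 and 0.077 in knockout, with an SD between knockout samples of 0.28, where the astrocyte score had 0.038. Scores of oligodendrocyte precursor markers (12 genes) were 0.0050, -0.12 and 0.099 in knockout and those of microglia markers (17 of 18) 0.028, -0.078 and 0.058, with knockout replicate 2 lowest and replicate 3 highest. Endothelial and mural markers (20 genes) scored -0.077, -0.065 and 0.0092 and choroid plexus and ependyma markers (13 of 15) -0.20, -0.076 and 0.032, with replicate 1 lowest. Pan-neuronal markers (19 genes) scored 0.052, -0.0046 and -0.029, with replicate 3 lowest. Radial glia and neural stem cell markers (12 of 13) scored -0.15, 0.034 and 0.0090 in knockout. Knockout minus wild type was -0.012 for precursor, 0.0054 for microglia, -0.089 for endothelial and mural and -0.16 for choroid plexus and ependyma scores. It was 0.012 for pan-neuronal, -0.074 for radial glia and -0.020 for astrocyte scores. The SD was larger in knockout for each of these scores except the endothelial and mural one (0.067 in wild type, 0.047 in knockout). The part of these other cell types in the astrocyte values was not tested.

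**Figure D4:**
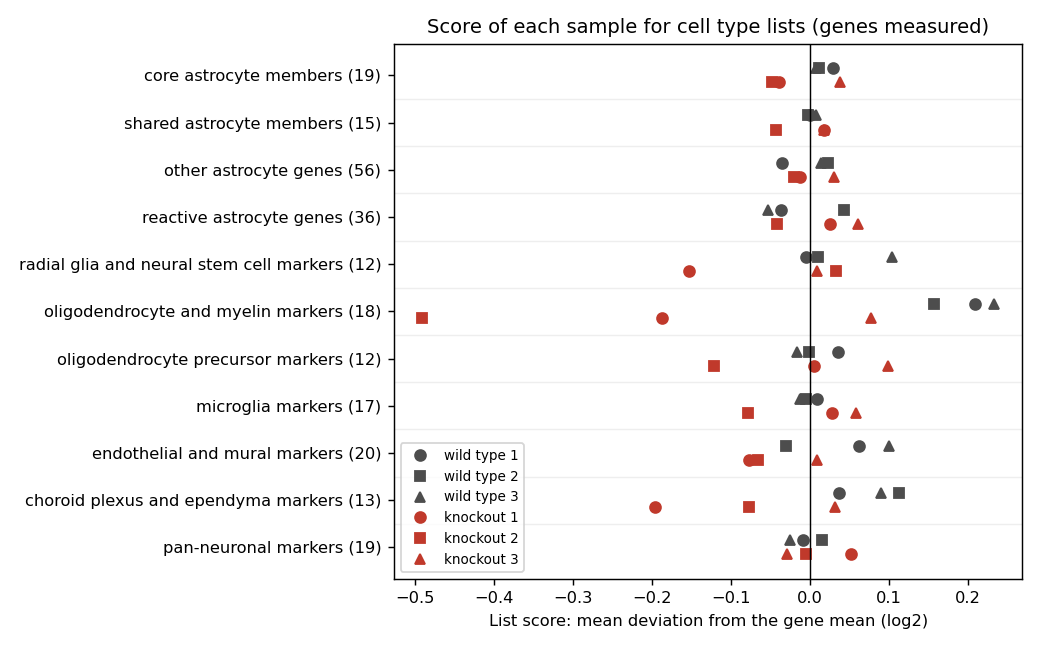
List scores (x axis, mean deviation from the gene mean on the log2 scale) of each sample for astrocyte lists and for markers of other cell types, with the number of genes measured in brackets. Wild-type samples are grey and knockout samples red, with circles, squares and triangles for replicates 1, 2 and 3. Core and shared astrocyte scores stay between -0.048 and 0.038, while the oligodendrocyte and myelin score reaches -0.49 in knockout replicate 2.

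Other genes known from astrocytes were read beside the 34. Of 57 listed, 56 were measured, and their median difference was -0.018 (23 higher, 33 lower). By limma 0 passed the adjusted threshold (lowest adjusted p = 0.849). With an unadjusted p under 0.05, 1 was higher and 0 lower, against 3.16% and 2.59% of all genes. The median was 0.0099 without knockout replicate 2 and 0.017 without wild-type replicate 3. Their score was -0.035, 0.023 and 0.014 in wild type and -0.013, -0.019 and 0.031 in knockout, with wild-type replicate 1 lowest and an SD of 0.031 in wild type and 0.027 in knockout (n = 3 each). The gene at an unadjusted p under 0.05 was Gli3, a transcription factor of hedgehog signalling, with signals of 5.58, 5.75 and 5.61 in wild type and 5.93, 5.95 and 6.08 in knockout. Its groups did not overlap, and it differed by 0.34, with a standard error of 0.084 (limma, adjusted p of 0.849, and 0.00382 before adjustment). Btbd17 differed by 0.22, Id3, an inhibitor of basic helix-loop-helix factors, by -0.20, and the NFI gene Nfix by 0.13, of which Nfix had groups that did not overlap. Btbd17 was 0.14 without knockout replicate 3, Id3 -0.13 without knockout replicate 1, and Nfix 0.058 with the mean of its probe sets. Of the 56, 2 lay wholly higher in knockout and 1 wholly lower, against 6.41% and 4.45% of all genes.

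Genes of reactive astrocytes, many of which other cells also induce, were split between both directions. Of 40 listed, 36 were measured, and their median difference was 0.0043 (20 higher, 16 lower). By limma 0 passed the adjusted threshold (lowest adjusted p = 0.849). The median was -0.0037 with quantile normalization and -0.00047 with median centring. Of the 36, 21 lay above the median of all probe sets, as did 58.5% of all genes. With an unadjusted limma p under 0.05, 1 was higher and 2 lower, against 3.16% and 2.59% of all genes. Iigp1, an interferon-induced GTPase with a dim probe set, below the median probe set in mean, had signals of 3.55, 3.79 and 3.46 in wild type and 4.19, 3.97 and 4.33 in knockout, a difference of 0.57 with a standard error of 0.12 (adjusted p = 0.849, limma). All its knockout values lay above all wild-type values. Tm4sf1, also known from endothelium, differed by -0.31, with all its knockout values below all its wild-type values. The membrane protein gene Emp1 differed by -0.27, and by -0.19 with the mean of its probe sets, where the unadjusted limma p was 0.0596. Emp1 had knockout values of 4.54, 4.62 and 4.94 beside 4.94, 4.98 and 4.99 in wild type, so its groups met at knockout replicate 3. Serpina3n, a protease inhibitor gene that is strongly raised in reactive astrocytes, had signals of 8.97, 8.89 and 8.96 in wild type and 9.27, 9.04 and 9.06 in knockout. Those groups did not overlap, and the difference was 0.19 with an interval of -0.019 to 0.39, or 0.11 without knockout replicate 1. Of the 36, 2 lay wholly higher in knockout and 1 wholly lower, against 6.41% and 4.45% of all genes.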

How the data were processed

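The authors deposited log2 signals of the 6 arrays in 1 table. The submitters' processing notes name Affymetrix Power Tools and RMA, without versions. RMA normalizes arrays together, which would hide a change common to most genes, and no raw scans were used. Of 41345 probe sets, 23521 named 1 gene in a platform annotation that can be old, 1814 named several and were left out, and 16010 had no name. Genotype was the only term in limma 3.58.1 (R 4.3.3; lmFit and eBayes), with Benjamini-Hochberg adjustment over 22180 genes at 0.05. Standard errors and 95% intervals come from that fit, and the median standard error of the 34 genes was 0.078, against 0.090 for all genes above the median probe set. The fit was tested on simulated data. Members and lists were chosen with earlier results of these data known, so lists are described without a test. Every member is named. Sample values are given for members with groups that do not overlap, for the 3 largest differences in each direction and for Gfap, Aqp4, Aldh1l1, Slc1a2, Slc1a3 and Gja1. In the other astrocyte lists the 4 genes of smallest p are named. Vim, the dimmer Glul and Slc7a11 probe sets and the Mlc1 window were added after values were seen. Alternatives were a replicate block, median centring, quantile normalization, trend and robust variance, array weights, only brighter probe sets, the mean of probe sets, other thresholds and leaving out each sample. Figures used matplotlib 3.10.9 in Python 3.11.15.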

Additional observations from a re-analysis of the deposited data

How the results depend on the processing

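With 3 arrays per group, differences within the printed intervals could not be resolved. Under every alternative run, 0 of the 34 astrocyte genes passed the adjusted threshold, also at 0.1. Of the 34, 19 kept their sign in all 13 alternatives, some of which could not turn a sign. A replicate block, trend and robust variance and only brighter probe sets left each of these differences unchanged. The mean of probe sets could change only Glul, Slc7a11 and Vim. Over all genes, the adjusted count was 1, Trpc4, under trend and robust variance. Without single samples it was 0 to 1, and the 1 gene, called without knockout replicate 1, was not Trpc4. The count of astrocyte genes at an unadjusted limma p under 0.05 became 1 of 34 with trend and robust variance (Mlc1) and 1 with the mean of probe sets (Glul, -0.23). It was 0 to 2 without single samples (Aqp4 and Gja1, without knockout replicate 3). In the main fit 5.75% of all genes had such a p, and the shares in these other fits are not given. All genes past an unadjusted p and 1.5-fold numbered 44, and 16 with only brighter probe sets, 779 at 1.2-fold, 3 at 2-fold and 50 to 78 without single samples. The median of other astrocyte genes lay between -0.028 and 0.017 without single samples. The sign turned with quantile normalization for Aldoc (-0.021), Ndrg2 (0.00040) and Clu (-0.0020), with median centring for Aldoc (-0.0012) and with array weights for Sox9 (0.010). Without single samples it turned within -0.19 to 0.035 for Gfap, -0.036 to 0.12 for Aldh1l1, -0.015 to 0.040 for Slc1a2, -0.016 to 0.059 for Slc1a3, -0.054 to 0.030 for S100b, -0.065 to 0.064 for Sox9, -0.021 to 0.038 for Aldoc, -0.041 to 0.010 for Slc7a10, -0.057 to 0.024 for Slc4a4, -0.057 to 0.010 for Acsbg1, -0.035 to 0.014 for Ndrg2, -0.029 to 0.028 for Clu, -0.17 to 0.030 for Vim, -0.095 to 0.0057 for Htra1 and -0.051 to 0.018 for Lcat. Single samples moved others by over 1.5 times without a turn of sign, within -0.075 to -0.00026 for Fgfr3, 0.0065 to 0.090 for Atp1b2, 0.0034 to 0.066 for Slc6a11, -0.085 to -0.028 for Apoe, 0.019 to 0.097 for Mfge8, 0.011 to 0.059 for Sparcl1, 0.013 to 0.067 for Cpe, -0.14 to -0.065 for Ntsr2 and -0.058 to -0.018 for Glul, besides those named with their values above. The cause was not tested. Same-numbered samples did not deviate together (correlations of 0.042, -0.0049 and -0.026 over probe sets). With the replicate number as a block 42 genes passed the unadjusted p and 1.5-fold. The astrocyte median was -0.010 as before, since a block leaves each difference unchanged in this balanced design.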
